A study of Mus with 4 samples.

Results

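Adipocyte genes and the genes of fatty acid synthesis were examined in 4 mouse tumor samples, each measured on 1 Affymetrix array. The set was a list of 40 genes chosen by name, and 36 of them carry a probe set in the platform annotation. Of these, 21 are fat cell markers (of 23 listed) and 15 are general lipogenic genes (of 17 listed). The annotation lacks Cfd, Adrb3, Scd2 and Srebf1, which were left out. The whole table holds 19505 named genes.

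The source of the tumors was Renca, an established renal adenocarcinoma line of the mouse, that stably expressed 1 of 2 hairpins, shNrf3, directed at Nrf3, or the control shCtrl. Nrf3 is a transcription factor of the cap'n'collar family, encoded by Nfe2l3. The cells were placed under the skin of the flank of male BALB/cCrSlc mice, which were 4 to 6 weeks old when bought and had then eaten normal chow (NC, the feed CE-2) or a high-fat diet (HFD, the feed HFD-60) for 17 weeks. Tumors were taken 2 weeks after injection. The groups were shCtrl-NC and shNrf3-NC on chow, then shCtrl-HFD and shNrf3-HFD on the fat diet, each represented by 1 array. Whether tumors were pooled for an array is not stated in the labels. Only the injected cells carry a hairpin, and every host cell in the tumor tissue is without it.

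White fat cells store triglyceride in a large droplet coated by perilipins and CIDE proteins. They take up fatty acids through lipoprotein lipase, CD36 and the carrier FABP4, and secrete adipokines such as adiponectin and resistin, under control of PPARG and C/EBP alpha. Fatty acid synthesis is not particular to fat cells. Tumor cells and many other cells build palmitate from acetyl-CoA with ATP citrate lyase, acetyl-CoA carboxylase and fatty acid synthase, then elongate and desaturate it, and the factors SREBP1 and ChREBP drive many of these genes. Bulk RNA cannot tell fewer or more cells of a type from less or more RNA per cell.

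Levels are log2 values, so that a difference of 1 is 2-fold. No difference between 2 arrays has a replicate check, and no p-value is given for one. As a floor served each array's median over its negative controls (5.35 to 5.39). A reading below it was set to it, which turns the difference into a bound ("or more", "or lower"). Where both readings lay below it, no difference is read. The 95th percentile of those controls was 8.97 to 9.35, and a fold is given only where both readings exceed it. Background shares are over the 10021 genes whose mean reached the median of all rows (5.73), and 29 of the 36 members did so, 15 of the 21 fat cell markers and 14 of the 15 lipogenic genes. Over these 10021 genes the median difference was 0.14 for shNrf3 in NC, -0.14 in HFD, 0.26 for HFD with shCtrl and -0.03 with shNrf3.

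In NC, Nfe2l3 read 6.22 with the label shCtrl and 5.56 with the label shNrf3. In HFD it read 5.77 with shCtrl and 6.05 with shNrf3, against the label. All 4 readings lie among those of the negative controls, so the knockdown is known from the labels alone, and every construct difference below rests on them. The tumor epithelial genes Krt8, Krt18, Epcam and Cdh1 read above the 95th percentile of the controls on all 4 arrays. All 4 read lowest in shNrf3-NC, where Epcam differed from shCtrl-NC by -1.56, Krt18 by -0.71, Cdh1 by -0.64 and Krt8 by -0.10. In HFD the shNrf3 tumor also read lower, by -0.49, -0.69, -0.80 and -0.29 for the same genes. The kidney tubule genes Cdh16, Pax8, Pax2 and Lrp2 read below the control median on all 4.

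The defining fat cell markers were only in part measurable. Adiponectin (Adipoq), resistin (Retn) and the droplet protein gene Cidec read above the 95th percentile of the controls on at least 1 array. Leptin (Lep) read 3.47, 3.23, 4.51 and 4.34 in the group order above, below the control median on all 4 arrays, and so did Plin4 (3.89 to 5.04). Perilipin 1 (Plin1), the main droplet coat of fat cells, read 5.78, 5.40, 6.48 and 5.27, close to that median. With Cfd and Adrb3 unmeasured, the fat cell label rests on 3 of 8 defining genes, and the other 3 measured ones read at or near background. Of 8 markers of brown or beige fat, none exceeded the 95th percentile of the controls on any array. Ucp1, the uncoupling protein of brown fat, read 2.63 to 3.05. The 3 largest chow differences of that list were those of Dio2 (0.46 or more), Cox8b (0.28 or more) and Cox7a1 (0.03), and in HFD these genes differed by 0.01, by no readable amount and by 0.39 or more.

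Of the 21 fat cell markers 11 read highest in the tumor labelled shNrf3-NC, against 24.1% of all genes past the filter. In shCtrl-HFD 5 (23.8%) read highest, a share below the 36.7% of all genes. For 9 markers, the adipokine genes Adipoq and Retn among them, shNrf3-NC came first and shCtrl-HFD second, against 10.0% of all genes. Adipoq, the gene of the adipokine adiponectin, read 8.38 in shCtrl-NC, 11.73 in shNrf3-NC, 9.70 in shCtrl-HFD and 8.36 in shNrf3-HFD. The shCtrl-NC and shNrf3-HFD tumors had nearly the same level, and the other two lay above both. Retn read 6.58, 11.81, 7.52 and 5.60 in that order. Its span over the arrays, 6.21, was the widest of all 36 members. Cidec, which helps fuse lipid droplets, read 8.98, 11.27, 10.15 and 8.31 and ranked the 4 arrays as Retn did.

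**Figure D1:**
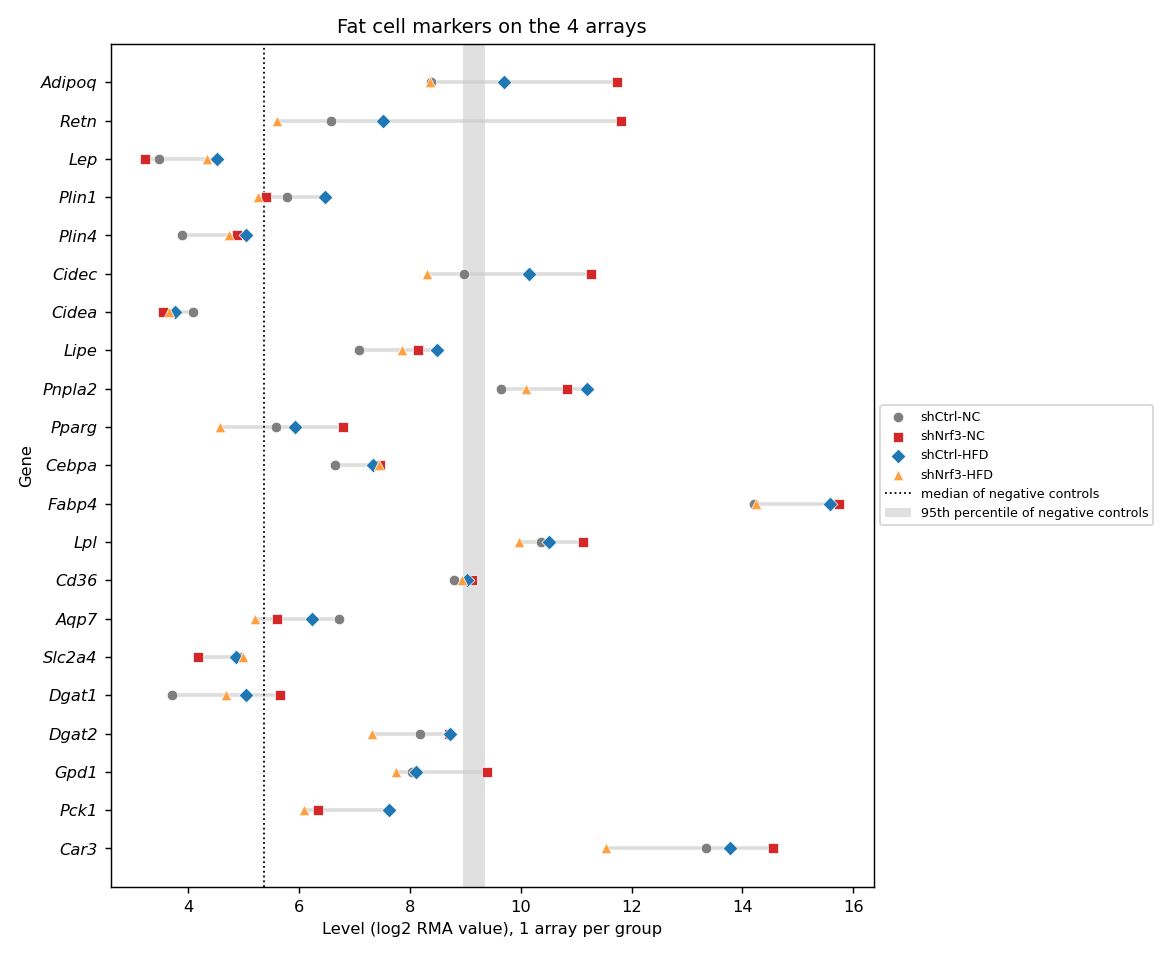
Level of each of the 21 measured fat cell markers (log2 RMA value, horizontal axis) on the 4 arrays, 1 symbol per array with 1 array per group. The dotted line is the mean over arrays of the negative control median and the band spans the 95th percentiles of the controls (8.97 to 9.35). For Adipoq, Retn and Cidec the shNrf3-NC array reads highest and shCtrl-HFD second.

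The carrier Fabp4 and the enzyme Car3 ranked the arrays alike in part, at higher levels. Fabp4, a fatty acid carrier that macrophages and capillary endothelium also express, read 14.20, 15.75, 15.58 and 14.25, so that shNrf3-NC and shCtrl-HFD lay close together at the top. Carbonic anhydrase 3 (Car3), abundant in fat and in muscle, read 13.35, 14.56, 13.78 and 11.53, with shNrf3-HFD far below the other three. Pnpla2, the first lipase of triglyceride breakdown, read 9.64, 10.84, 11.20 and 10.09 and was highest in shCtrl-HFD. Hormone-sensitive lipase (Lipe), which acts next, had the same order at 7.08, 8.16, 8.50 and 7.85. Lpl, the lipoprotein lipase gene, read 10.37, 11.12, 10.51 and 9.96, within a span of 1.16. The fatty acid receptor gene Cd36 hardly differed among arrays (8.80 to 9.13).

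Enzymes that supply glycerol and assemble triglyceride differed among themselves. Gpd1, which makes glycerol 3-phosphate, read 8.04, 9.39, 8.12 and 7.75, so that shNrf3-NC alone stood out. Dgat2, which adds the last acyl chain, read 8.19, 8.71, 8.73 and 7.31, and here shNrf3-HFD stood out as low. Pck1, an enzyme of glycerol synthesis in fat and of glucose synthesis in kidney, read 6.33, 6.35, 7.62 and 6.09 and was high in shCtrl-HFD alone. The regulator gene Pparg read 5.59, 6.79, 5.92 and 4.57, the last below the floor, and Cebpa 6.65, 7.46, 7.34 and 7.44, all within the range of the controls. Aqp7, the glycerol channel of fat cells, went the other way, with 6.73 and 6.23 in the shCtrl tumors against 5.60 and 5.20 in the shNrf3 tumors of the same diets. Cidea and the glucose transporter gene Slc2a4 read below the control median on all 4 arrays, and Dgat1 exceeded it in shNrf3-NC alone (5.66).

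Among the lipogenic genes, Scd1, which puts the first double bond into stearate and palmitate, varied most. It read 13.16 in shCtrl-NC, 16.56 in shNrf3-NC, 15.29 in shCtrl-HFD and 14.82 in shNrf3-HFD. All 3 other tumors lay well above shCtrl-NC. Scd1 has close relatives, and which of them its probe set reads besides was not tested. Fads2, the delta-6 desaturase of polyunsaturated fatty acids, read 10.02, 11.75, 11.58 and 10.79, and Fads1, the delta-5 desaturase that acts later in the same chain, 7.87, 9.35, 9.05 and 9.28. These genes lie next to each other in the RefSeq gene table. They shared the low reading in shCtrl-NC and parted in shNrf3-HFD, where Fads1 stayed near its other high readings and Fads2 lay in between.

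Elongases split in the same manner. Elovl5, which elongates polyunsaturated chains, read 10.78, 12.26, 11.49 and 11.83, with both shNrf3 tumors above both shCtrl tumors. Elovl6, which takes palmitate to stearate, read 8.21, 9.34, 9.81 and 8.78 and was highest in shCtrl-HFD, as was Elovl1 (10.29 to 11.11), the elongase of very long saturated chains. Fatty acid synthase (Fasn) read 9.12, 10.84, 10.42 and 9.74, and Acss2, which makes acetyl-CoA from acetate, 7.04, 8.05, 7.69 and 7.53. Both were lowest in shCtrl-NC and highest in shNrf3-NC. Me1, a source of NADPH, read 7.86, 8.88, 8.38 and 7.86.

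Other early steps of the pathway varied little or in another order. ATP citrate lyase (Acly) read 11.30 to 11.79 on the 4 arrays. Acetyl-CoA carboxylase 1 (Acaca) read 8.66, 9.02, 8.49 and 7.72 and Gpam, which starts glycerolipid synthesis, 9.22, 9.40, 9.18 and 8.36, so that for both shNrf3-HFD was lowest. Acacb, the carboxylase isoform at mitochondria, read 5.81 to 6.81, lowest in shCtrl-HFD. Thrsp, a lipogenic regulator of fat, liver and mammary gland, read 6.76, 8.25, 5.90 and 4.88, with both NC tumors above both HFD tumors. The ChREBP gene Mlxipl read below the control median on all 4 arrays.

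**Figure D2:**
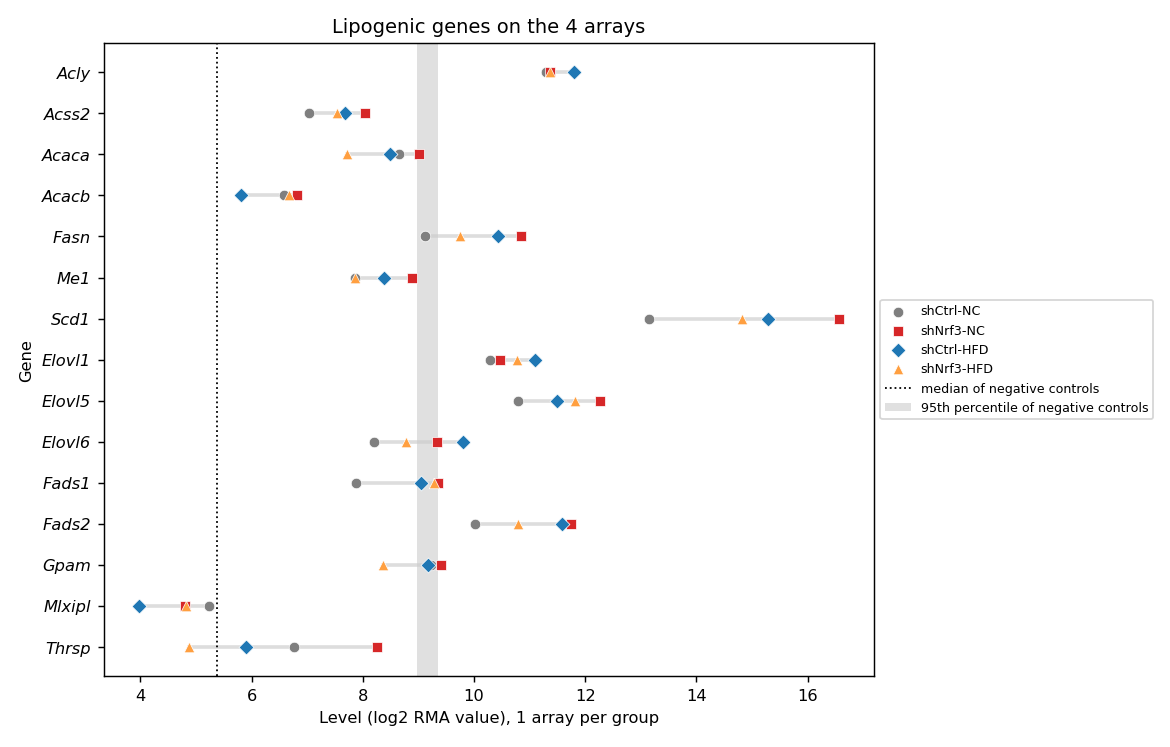
Level of each of the 15 measured lipogenic genes (log2 RMA value, horizontal axis) on the 4 arrays, 1 symbol per array with 1 array per group, with the control median as a dotted line and the 95th percentiles of the controls as a band. Scd1 has the widest span (3.41, from 13.16 in shCtrl-NC to 16.56 in shNrf3-NC), and shNrf3-NC is the highest array for 11 of the 15 genes.

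Over both lists, the shNrf3-NC and shCtrl-HFD tumors held the 2 highest readings for 13 of 21 fat cell markers and 6 of 15 lipogenic genes, against 23.5% of all genes past the filter. The shNrf3-NC array alone was highest for 11 fat cell markers and 11 lipogenic genes, against 24.1% of all genes. The shCtrl-HFD array was highest for 5 and 3 of them, against 36.7% of all genes. The lowest array differed between the lists. Among lipogenic genes shCtrl-NC was lowest for 10 and shNrf3-HFD for 2, and among all genes past the filter for 4063 and 2167 of 10021. Among fat cell markers shNrf3-HFD was lowest for 8 and shCtrl-NC for 5, counting only genes whose lowest reading lay above the floor. The median span over the arrays was 1.40 for fat cell markers and 1.30 for lipogenic genes, and 0.85 for all genes past the filter.

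In normal chow, most measurable genes of both lists read higher in the tumor labelled shNrf3. Of 21 fat cell markers 9 read at least 2-fold higher and 1 (Aqp7, -1.12) lower, for a median difference of 0.75. Among all genes past the filter 13.2% were higher and 4.47% lower by that much. Retn differed by 5.23, Adipoq by 3.35 and Cidec by 2.29. Fabp4 was 2.92-fold, Car3 2.31-fold and Pnpla2 2.30-fold higher, and Gpd1 (1.35), Pparg (1.20) and Lipe (1.07) also passed 2-fold. Of 15 lipogenic genes 9 passed 2-fold upward and 0 downward, at a median of 1.02. Scd1 was 10.6-fold, Fads2 3.31-fold and Elovl5 2.78-fold higher, and Fasn (1.72), Thrsp (1.49), Fads1 (1.48), Elovl6 (1.13), Me1 (1.02) and Acss2 (1.01) followed. Acly (1.04-fold) and Gpam (0.18) differed little, and after centring both read slightly lower. After each array was centred on its median, 6 fat cell markers and 6 lipogenic genes were at least 2-fold higher, against 9.03% of all genes.

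Markers of other cell types differed in chow too. Muscle and macrophage markers went mostly the way of the members, and endothelial, stroma and skin markers mostly the other way. Skeletal muscle markers, none of which is a member, were 2-fold or more higher in shNrf3-NC for 8 of 17, and their median level there was 6.75 against 4.68 to 5.06 on the other arrays. Acta1, the actin of skeletal muscle, read 12.51 in shNrf3-NC and 4.73 to 6.48 elsewhere, and Myl1 (11.38) and Myh4 (10.21) were likewise high on that array only. Macrophage markers were 2-fold or more higher for 8 of 11, with Aif1 (2.11), Itgam (1.90) and C1qb (1.83) leading. Endothelial markers were 2-fold or more lower for 5 of 9 (Cdh5 -1.97, Kdr -1.56, Emcn -1.32). Stroma markers were 2-fold or more lower for 2 of 8 (Lum -1.96, Pdgfrb -1.40) and skin markers for 2 of 8 (Krt14 -1.17, Krt10 -1.10 or lower). Of 6 sebaceous gland markers 5 read below the control median on every array, Awat2 and Awat1 among them, and Scd3 differed by -0.05. The part of tumor cells, muscle, macrophages or adjoining fat tissue in the differences of the members was not tested.

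In high-fat diet the fat cell markers read lower in the shNrf3 tumor, and the lipogenic genes did so by less. Of 21 fat cell markers 9 were 2-fold or more lower and 0 higher, with a median of -0.64. The shares among all genes past the filter were 6.95% lower and 2.30% higher. Car3 was 4.76-fold, Fabp4 2.51-fold and Pnpla2 2.16-fold lower, and Retn differed by -1.92, Cidec by -1.84, Pck1 by -1.53, Dgat2 by -1.42 and Adipoq by -1.33. Plin1 differed by -1.09 or lower at a level near background. Only 1 of 15 lipogenic genes, Elovl6 (-1.02), was 2-fold lower and 0 higher, with a median of -0.47, so that this share is near the background. Centred arrays gave 0 lower and 1 higher, against 3.62% and 4.67% of all genes, and cyclic loess 0 of either, against 5.04% and 3.05%. Fasn was 1.60-fold and Scd1 1.38-fold lower, Acacb differed by 0.86 and Elovl5 by 0.34.

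Muscle markers differed less in that diet. Of 17 such genes 4 were 2-fold or more lower in shNrf3-HFD, and 9 and 12 read below the control median in shCtrl-HFD and shNrf3-HFD. Fibroblast and adipose stroma markers were 2-fold or more lower for 7 of 8, with Lum at -3.03, Col3a1 at -1.92 and Pdgfrb at -1.92. Skin markers were 2-fold or more lower for 4 of 8 and higher for 0. Of these, Krt10 (-4.12 or lower) and Krt1 (-1.98 or lower) read highest in shCtrl-HFD, at 9.50 and 7.37, while Krt14 differed by -0.78. Endothelial markers were 2-fold or more lower for 3 of 9 (Flt1 -1.87, Cdh5 -1.61, Kdr -1.57). Macrophage markers went the other way, with 10 of 11 above 0 and 2 at least 2-fold higher. Most stroma, skin and endothelial genes thus lay on the side of the fat cell markers in HFD and on the opposite side in NC, and their part was not tested.

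**Figure D3:**
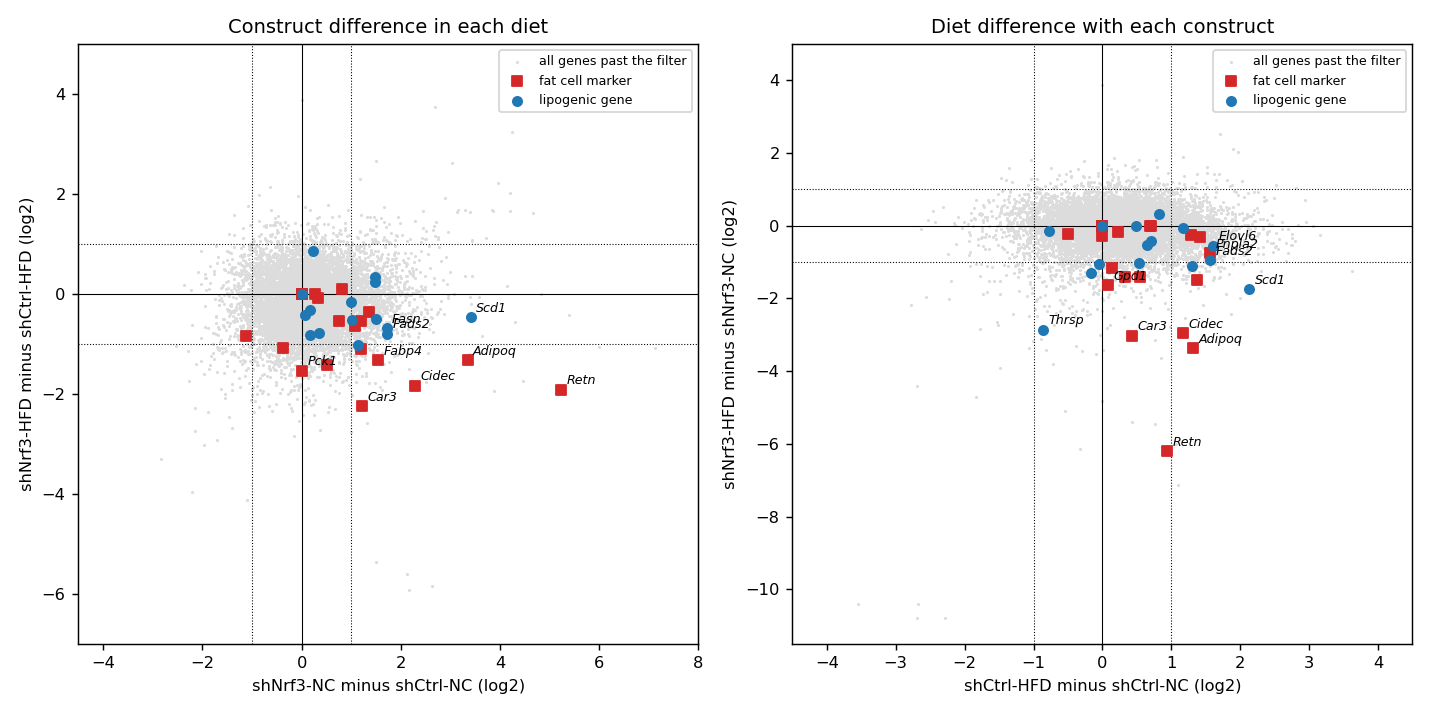
Left, the shNrf3 minus shCtrl difference (log2) in NC (horizontal) and HFD (vertical); right, the HFD minus NC difference with shCtrl (horizontal) and shNrf3 (vertical). Squares are fat cell markers, circles lipogenic genes and grey points all 10021 genes past the filter, with dotted lines at 2-fold; Retn, Adipoq, Cidec and Car3 lie toward the lower right of the left panel.

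The construct differences of both diets, which share no array, thus had opposite signs for many members. In NC they were above 0 and in HFD below 0 for 24 of 36 members, against 34.4% of all genes past the filter. Small differences changed sign after centring, in NC those of Pck1, Acly, Elovl1 and Gpam and in HFD those of Cd36 and Acss2. By 2-fold or more in each, 7 members had a higher reading in NC but a lower one in HFD (Adipoq, Retn, Cidec, Pnpla2, Fabp4, Car3 and Elovl6), against 0.758% of all genes. After centring 5 of them did (Pnpla2 and Elovl6 fell short), against 0.299%, and after cyclic loess 4 (Car3 fell short too), against 0.439%. Of the 36 members 0 had the reverse (0.0898% of all genes). By 2-fold 0 members were higher in both diets (0.798% of all genes) and 0 lower in both (0.808%). Elovl5 and Fads1 were higher in the shNrf3 tumor in both diets (1.47 and 0.34 for Elovl5, 1.48 and 0.24 for Fads1), as were Cebpa (0.81 and 0.10) and Acacb (0.24 and 0.86), 4 members in all against 23.5% of all genes. Aqp7 (-1.12, and -0.84 or lower) and Plin1 (-0.38, and -1.09 or lower) were lower in both, 2 members against 26.5% of all genes. The HFD minus NC gap between construct differences had a median of -1.55 for fat cell markers and -1.16 for lipogenic genes, and of -0.30 for all genes past the filter.

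High-fat feeding went with higher readings of both lists in the shCtrl tumor. Of 21 fat cell markers 6 were 2-fold or more higher in shCtrl-HFD than in shCtrl-NC and 0 lower, with a median of 0.44. Among 15 lipogenic genes 5 were higher by that much and 0 lower (median 0.64). Among all genes past the filter 14.5% were higher and 3.79% lower. Pnpla2 was 2.95-fold and Fabp4 2.60-fold higher, and Lipe (1.41), Adipoq (1.31), Pck1 (1.29) and Cidec (1.17) also passed 2-fold. Scd1 was 4.38-fold and Fads2 2.95-fold higher, followed by Elovl6 (1.60), Fasn (1.30) and Fads1 (1.18). Centring left 3 fat cell markers and 3 lipogenic genes 2-fold higher, with 2 lipogenic genes lower, against 7.06% higher and 8.32% lower among all genes. These counts do not involve the shNrf3-NC array. They share the shCtrl-NC array with the chow construct counts, so a low reading there raises both. With that reading above the floor, shCtrl-NC was lowest for 10 of 15 lipogenic genes and 4063 of 10021 genes past the filter. Muscle markers were 2-fold higher for 2 of 17 and lower for 0. Macrophage markers were higher for 4 of 11 and lower for 1 (Cd163, -1.24). Skin markers were higher for 3 of 8 and lower for 0, with Krt10 at 3.05. Stroma markers went mostly the other way, with 0 of 8 higher and 2 lower (Lum -1.78, Dcn -1.06) at a median of -0.66. Endothelial markers were 2-fold lower for 2 of 9 and higher for 0. The tumor epithelial genes Krt8, Krt18, Epcam and Cdh1 read higher by 0.47 to 0.74. The part of these cells was not tested.

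With shNrf3 the diet difference had the opposite sign. Of 21 fat cell markers 9 were 2-fold or more lower in shNrf3-HFD than in shNrf3-NC and 0 higher, with a median of -0.30. Of 15 lipogenic genes 6 were lower and 0 higher, with a median of -0.55. The shares among all genes past the filter were 4.93% lower and 1.76% higher. Retn differed by -6.21, Adipoq by -3.37 and Cidec by -2.96, and Car3 was 8.14-fold, Fabp4 2.82-fold and Lpl 2.23-fold lower. Gpd1 (-1.64), Dgat2 (-1.40) and Pparg (-1.40 or lower) followed. Among lipogenic genes Thrsp differed by -2.87 or lower, Acaca by -1.30 and Gpam by -1.04, Scd1 was 3.35-fold and Fasn 2.14-fold lower, and Me1 differed by -1.02. Muscle markers were 2-fold or more lower for 8 of 17, on the same pair of arrays. Stroma markers were so for 4 of 8, at a median of -1.06, with Dcn at -3.35, Lum at -2.84 and Col3a1 at -1.74, and their part was not tested either. Adipoq, Cidec, Fabp4, Scd1 and Fasn, 5 of 36 members, were 2-fold higher on HFD with shCtrl and 2-fold lower with shNrf3, against 0.748% of all genes. Only 2 remained so after centring (Fabp4 and Scd1, against 0.309%) and 2 after cyclic loess (Adipoq and Scd1, against 0.489%). In none of the 4 comparisons did 11 members reach 2-fold (Lep, Plin4, Cidea, Cebpa, Cd36, Slc2a4, Dgat1, Acly, Acacb, Elovl1 and Mlxipl), against 66.6% of all genes, and 5 of these lay below the floor throughout.

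The other genes of these pathways differed less than the members. Members and lists were chosen with earlier results of these data known, so this is a description and no test. Of 24 further measured genes of fat cell lipid handling, 4 were 2-fold higher and 2 lower for shNrf3 in NC, and 1 and 1 in HFD, with medians of 0.00. Agpat2, an acyltransferase needed for fat cells to form, read 9.05, 11.80, 10.66 and 10.30, in the order of Scd1. Cebpd differed by 1.37 in NC and 0.34 in HFD, and G0s2, an inhibitor of Pnpla2, by 1.24 and 1.04 at levels among the controls. Of 29 further fatty acid synthesis genes 6 (20.7%) were 2-fold higher in NC and 0 lower, and 0 of either in HFD. Their medians were 0.44 and -0.03, and the same shares of all genes apply. For diet with shCtrl 4 of the 24 and 6 of the 29 were 2-fold higher and 0 lower, against 14.5% and 3.79% of all genes. With shNrf3 2 of the 24 were higher and 2 lower, and 0 of the 29 either way, against 1.76% and 4.93%. Slc25a1, the mitochondrial citrate carrier, read 10.38, 11.86, 11.43 and 11.25. Tecr, the last enzyme of each elongation round, read 9.01, 10.45, 10.83 and 10.21, and Agpat3 11.47, 12.70, 12.95 and 12.51. For these 3 genes shCtrl-NC was the low array and the other three lay close together.

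**Figure D4:**
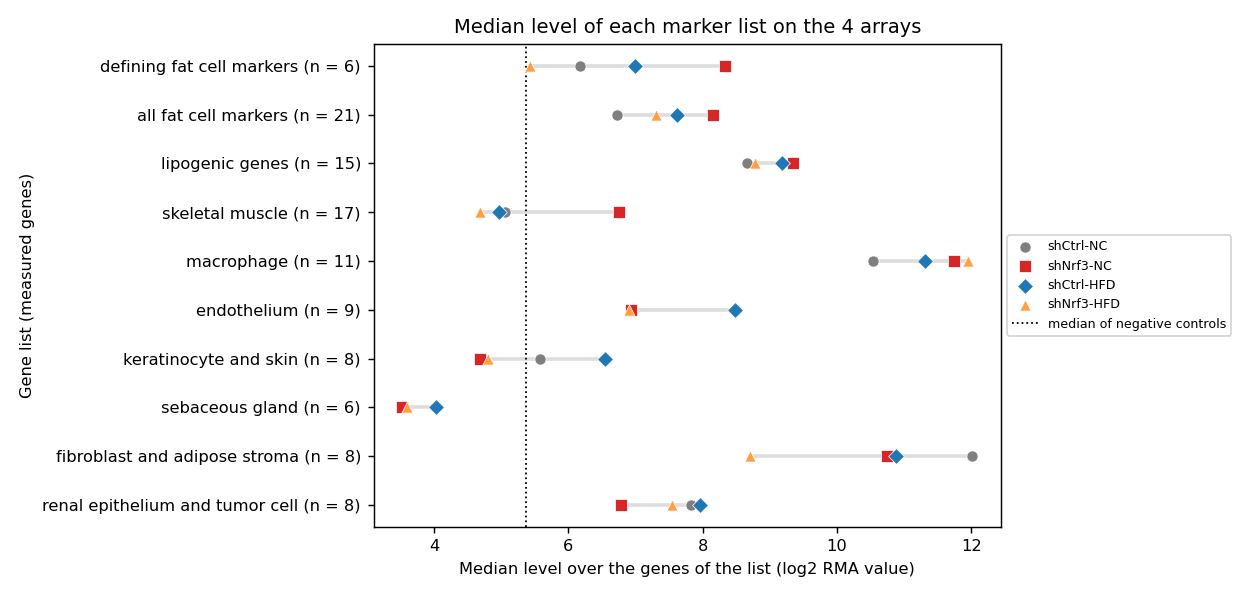
Median level (log2 RMA value, horizontal axis) of each gene list on the 4 arrays, 1 symbol per array with 1 array per group, with the number of measured genes beside each list and the control median as a dotted line. Skeletal muscle is high in shNrf3-NC alone (6.75), while the 6 measured defining fat cell markers run from 5.44 in shNrf3-HFD to 8.33 in shNrf3-NC.

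Fitting construct and diet additively with limma over the 10021 genes gave each of the 29 members past the filter an averaged difference with an error. The error comes from the gap between construct differences in the 2 diets (1 residual degree of freedom), and not from replicate tumors. This error is pulled by limma toward a value pooled over all genes. The gap is large for many members, such as Retn (-7.15), and smaller for others, such as Cd36 (-0.41). Readings entered the fit without the floor, also those of Thrsp, Plin1 and Aqp7 in shNrf3-HFD that lay below it. For the construct 0 of 29 members and 0 genes in all (0.00%) passed an adjusted p of 0.05 in limma. At an unadjusted p under 0.05 in limma 1 member did (Aqp7, -1.08 ± 0.38, SE), against 4.46% of all genes. Elovl5 had 0.91 ± 0.44 and Fads1 0.86 ± 0.45, while Adipoq had 1.01 ± 0.98 and Retn 1.66 ± 1.43. For the diet limma called 0 of 29 members and 0 genes in all, and 1 member was under 0.05 unadjusted (Thrsp, -2.12 ± 0.62, SE), against 2.91% of all genes. The smallest adjusted p among the members was 0.961 for the construct and 0.999 for the diet in limma.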

How the data were processed

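RNA of tumor tissue (100 ng total RNA per array, biotin-labelled) was measured on 4 arrays, 1 per group. Each deposited value is a log2 level from RMA, run by the authors in Affymetrix Expression Console per the submitters' processing notes. Versions and genome build: not given in the sources used here. RMA fits arrays together, so a shift of one array can move others. Among 28846 rows, 22206 were transcripts and 5222 negative controls. Platform annotation gave 19572 probe sets 1 symbol each, 0 several, and 2634 none. Every Entrez ID was found in the RefSeq table of GRCm38.p6. Each member had 1 probe set, and 55 other genes had several, of which the highest mean was taken. The number of arrays limits the precision.

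Differences, lists and limma 3.58.1 (R 4.3.3; lmFit and eBayes, Benjamini-Hochberg) were computed as the report states. The fit was also run on simulated data with noise of equal size for all genes and construct differences alike in both diets. Such data hold no construct by diet gap beyond noise, so that run cannot show how the fit behaves for these genes. The members, lists and tests were chosen with earlier results of these data known, and all 40 members, the 3 genes of each other list with the largest chow construct difference, and Nfe2l3 are named. Alternatives were cyclic loess, centring, other filters, no floor, 1.5-fold, probe set means and narrower marker lists. A planned motif description of promoters was not run, since no sequences were used here.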

Additional observations from a re-analysis of the deposited data

Results flagged for a closer look

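These results were flagged because the construct difference differed between the 2 diets. Its median had opposite signs in the 2 diets for both lists, but so did that of all genes past the filter (0.14 in NC, -0.14 in HFD). Centring, which brings the median of all genes near 0 by design, gave -0.06 in NC and 0.07 in HFD for them. Both lists kept their signs after it (fat cell markers 0.54 and -0.43, lipogenic genes 0.82 and -0.25). For lipogenic genes the share 2-fold lower in HFD, 1 of 15, was near that of all genes (6.95%). By 2-fold or more each way the signs were opposite for 7 members, higher in NC and lower in HFD, against 0.758% of all genes. After centring 5 of the 7 kept 2-fold each way, and after cyclic loess 4 did. With 1 array per group the difference between diets was not tested. The HFD construct difference minus the NC one had a median of -1.55 for fat cell markers and -1.16 for lipogenic genes, against -0.30 for all genes past the filter. It was -7.15 for Retn, -4.68 for Adipoq, -4.13 for Cidec, -3.46 for Car3, -2.88 for Fabp4, -2.31 for Pnpla2 and -2.16 for Elovl6.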

How the results depend on the processing

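No median of a list and no member 2-fold apart changed sign under any alternative run. Probe set means changed no value of a member. Of the single-member differences, 13 of 144 moved by over 1.5-fold without the floor and 0 of 144 after loess or centring. For fat cell markers, genes past the 75th percentile filter (7) gave medians of -1.33 in HFD, 1.17 and -1.50 for diet (shCtrl, shNrf3) and -2.88 for construct by diet, with 5 higher in NC, 5 lower in HFD and 5 lower for diet with shNrf3. The 6 defining markers gave -1.48 for diet with shNrf3 and -2.42 for construct by diet, with 3 higher in NC, 4 lower in HFD, 2 higher and 3 lower for diet. The 15 past the main filter had a median of -1.16 for diet with shNrf3. Without 8 markers that other cells express, 5 were higher in NC and 5 lower for diet with shNrf3. Centring gave 3 fat cell markers higher for diet with shCtrl. Lipogenic genes lower in HFD numbered 0 after loess or centring, 2 without the floor and 5 at 1.5-fold. Those higher for diet with shCtrl numbered 3 after loess or centring and 8 at 1.5-fold, and 3 were lower for diet with shNrf3 after centring. The limma fit called 9 genes for construct and 1 for diet after loess, and 27 and 11 after centring, with 0 members in each. Its smallest adjusted p ran from 0.00071 to 0.869 for construct and 0.00165 to 0.999 for diet. In counts under alternatives chosen after seeing the data, members 2-fold higher in NC and lower in HFD numbered 4 after loess, 5 after centring and 9 without the floor (7 without rescaling), and those 2-fold higher for diet with shCtrl and lower with shNrf3 numbered 2 after loess and 2 after centring (5 without rescaling). Scaling also moved the split of all 2-fold genes. The share that was higher was 74.6%, 24.8%, 79.3% and 26.3% in the order of the comparisons (NC, HFD, shCtrl, shNrf3), 63.2%, 37.7%, 58.6% and 27.9% after loess, and 53.5%, 56.3%, 45.9% and 41.1% after centring. No paired analysis was possible because each group holds 1 array, and none could be left out. No reading exceeded the 95th percentile of the controls for Lep, Plin1, Plin4, Cidea, Slc2a4, Dgat1, Pparg, Aqp7, Cebpa, Lipe, Pck1, Dgat2, Acss2, Acacb, Me1, Mlxipl and Thrsp, which limits them.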
